A study of Mus musculus with 8 samples.

Results

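Heat shock proteins and molecular chaperones were examined in the mouse olfactory bulb by way of 10 genes: Hspa1a, Hspa1b, Hspa5, Hspa8, Hsp90aa1, Hspb1, Hsph1, Hspd1, Hspe1 and Dnajb1. The members were all probes other than control probes that carried one of these names on a 1-color Agilent mouse expression array. The names found 14 probes for 9 genes among 59305 noncontrol spots, because no probe was named Hspa1b. All 14 probes were well above background on all 8 arrays, none had an outlier flag, and all 14 were among the 21709 probes kept.

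The study asked whether an enriched environment alters the response of the brain to inhaled diesel exhaust (DE). All animals were male C57BL/6J mice, examined at an age of 56 days, 1 day after the last exposure. The C-C group lived in standard cages and breathed clean air, and the C-DE group lived in standard cages and breathed DE at a particle concentration of 90 µg/m3 for 8 h a day over 28 days, from postnatal day 28 to day 55. The EE-C group was reared from before birth in the enriched environment, roomier housing furnished for exercise, shelter and play, and breathed clean air. The EE-DE group had the enriched environment and the same DE exposure.

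RNA of several mice was pooled within each group, and each pool was read on 2 arrays. A group was therefore 1 sample, the 2 arrays measured only technical spread, and no test between groups was possible. Differences are given as the difference of mean log2 signals, with the range over the 4 pairings of arrays in parentheses. Levels are log2 signals relative to the 75th percentile of the same array, and a difference of 1.5-fold, the threshold of the study, is 0.58 on the log2 scale. Duplicate arrays differed with an SD of 0.108 to 0.167 over all probes. The 8 arrays shared 1 slide, on which each rearing took up a column of its own, so rearing and slide column cannot be told apart. The first EE-DE array had 56.7% of noncontrol spots well above background against 68.0% to 70.6% on the other 7. Of 12 listed marker genes of bulb neurons, 11 were kept, and their summed level lay between 191 and 201 on the 8 arrays.

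Heat shock proteins keep other proteins folded and rescue them when heat, oxidants or metals unfold them. Under such stress heat shock factor 1 binds heat shock elements, repeats of GAA and TTC units, in the promoters of the inducible cytosolic genes. Stress of the endoplasmic reticulum acts through other elements, and its best known target is Hspa5. Neurons are known to hold much constitutive Hspa8 and to induce Hspa1a and Hspa1b weakly, while glia and vessel cells induce them readily.

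The members' identity rested on a few sequences. The single Hspa1a probe is shown because its annotation lists the transcripts of both Hspa1a and Hspa1b, so its signal cannot be divided between the genes. It lies at chr17:35107117-35107176 of mm9, minus strand.
Hspa1a probe: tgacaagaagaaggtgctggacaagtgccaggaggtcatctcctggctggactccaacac
The 250 bases before the start sites of the 2 genes, from RefSeq on GRCm38.p6, were the same at 247 of 250 positions. The Hspa1a window lies at chr17:34972157-34972406, minus strand, and its capitals mark a heat shock element of 2 units, from 104 to 97 bases before the start.
Hspa1a promoter: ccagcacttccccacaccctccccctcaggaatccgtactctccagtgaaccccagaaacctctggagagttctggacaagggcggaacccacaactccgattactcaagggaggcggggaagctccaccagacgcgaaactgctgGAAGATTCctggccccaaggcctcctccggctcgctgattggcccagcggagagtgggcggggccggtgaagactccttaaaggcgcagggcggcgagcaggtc

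Promoter sequence was on hand for 8 of the 10 members. The heat shock element of 2 units, searched on both strands, was found before 6 of them, namely Hspa1a, Hspa1b, Hspb1, Hspd1, Hspe1 and Hsph1. It occurred in 12.8% of all 32851 promoter windows of 250 bases. The 8 genes had 11 windows, and a gene counted if any of its windows held the element. The 6 is therefore a count of genes and the share one of windows, which are unlike measures. Hspa1a and Hspa1b had nearly the same window, and Hspd1 and Hspe1 shared their element, so these pairs are not separate finds. The form of 3 units, in which 2-unit elements overlap, was found before Hspd1 and Hspe1 and in 0.466% of all windows. These genes for the mitochondrial chaperonin and its lid lie head to head, and the shared stretch is at chr1:55088053-55088082 of GRCm38.p6, shown on the plus strand with the repeat in capitals. The capitals span 2 overlapping matches of the 3-unit form.
Hspd1 and Hspe1 shared element: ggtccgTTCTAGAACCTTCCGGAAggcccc
The endoplasmic reticulum stress element was searched on both strands and found before Hspa5 alone among the members and in 0.113% of all windows. It is marked in capitals at chr2:34771840-34772089, plus strand, from 65 to 47 bases before the start.
Hspa5 promoter: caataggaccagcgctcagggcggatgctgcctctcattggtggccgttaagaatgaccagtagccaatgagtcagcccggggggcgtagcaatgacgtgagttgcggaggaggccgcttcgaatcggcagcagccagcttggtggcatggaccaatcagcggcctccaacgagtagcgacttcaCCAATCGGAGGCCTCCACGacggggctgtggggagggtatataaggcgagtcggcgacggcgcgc
These matches describe the letters in the windows and do not show that a factor bound them.

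DE exposure in standard cages left all 9 genes within 0.08 of the control pool on the log2 scale, and none of the 14 probes passed 1.5-fold, where 0.576% of all 21709 probes did. The median difference of the 9 genes was 0.03, against −0.01 over all probes. DE exposure in the enriched environment gave gene differences from −0.12 to 0.07 with a median of −0.01, and again none of the 14 probes passed 1.5-fold, where 0.944% of all probes did. For rearing, gene differences in EE-C/C-C ran from −0.09 to 0.16 and EE-DE/C-DE differences from −0.21 to 0.05, with no member past 1.5-fold, where 0.825% and 0.636% of all probes passed. In EE-DE/C-C, too, no member passed 1.5-fold, where 0.815% of all probes did. Several of these comparisons share a pool, so they are not independent of each other.

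Arrays of 2 pools often did not overlap on the whole array, and several member probes belong to 1 gene, so counts out of 14 are read only beside the share of all probes. In C-DE/C-C the arrays of 5 of 14 member probes did not overlap (35.7%), against 40.9% of all probes. The same number did not overlap in EE-DE/EE-C, where the value over all probes was 34.2%. For EE-C/C-C the count was 7 of 14 (50.0%), against 37.7%, and for EE-DE/C-DE it was 6 of 14 (42.9%), against 42.2%. EE-DE/C-C had 9 of 14 (64.3%), against 47.1%.

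**Figure D1:**
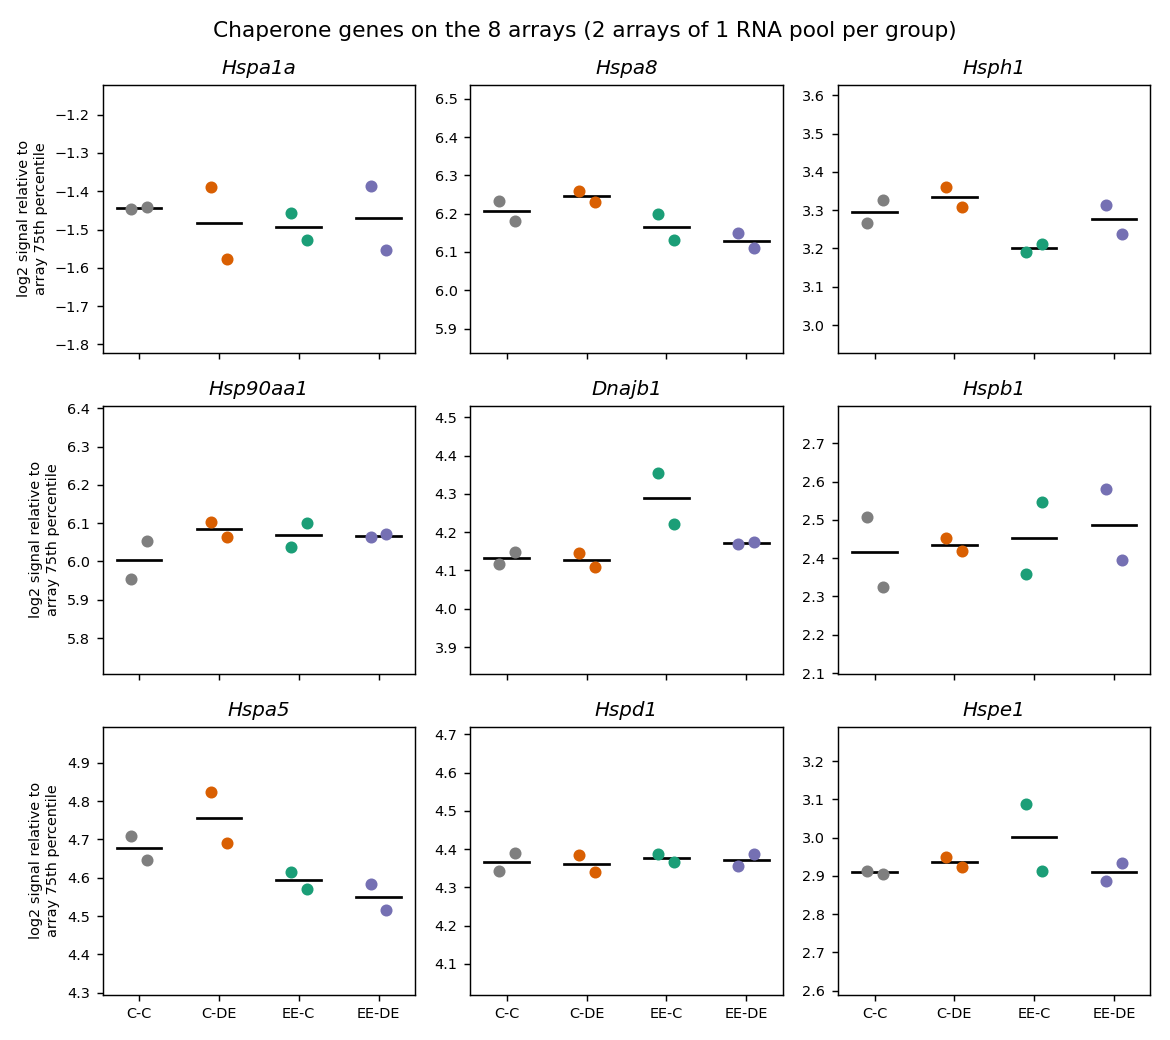
Level of each of the 9 genes on the 8 arrays, as log2 signal relative to the 75th percentile of the array, with 1 point per array and a bar at the pool mean; every panel spans 0.7 log2 units. All 4 standard-cage arrays lie above all 4 enriched arrays for Hspa5, and Dnajb1 is highest in EE-C.

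Hspa1a, the classical inducible Hsp70, gave signals of 222 to 274 units on the scanner scale. Its levels were −1.45 and −1.44 in C-C, −1.39 and −1.58 in C-DE, −1.46 and −1.53 in EE-C, and −1.39 and −1.55 in EE-DE. Either DE pool spanned the C-C values on its arrays, and the 4 pool means lay within 0.05 of each other. The C-DE/C-C difference was −0.04 (−0.14 to 0.06), and the EE-DE/EE-C difference was 0.02 (−0.10 to 0.14). The signal belongs to Hspa1a and Hspa1b together.

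Hsph1, an Hsp110 that exchanges the nucleotide of Hsp70, was read by 2 probes. Mean levels were 3.27 and 3.33 in C-C, 3.36 and 3.31 in C-DE, 3.19 and 3.21 in EE-C, and 3.31 and 3.24 in EE-DE. On this mean EE-C was the lowest pool and did not overlap with any other. The EE-C/C-C difference was −0.09 (−0.13 to −0.05), and the EE-DE/EE-C difference was 0.07 (0.03 to 0.12). The latter came mostly from probe 2, at 0.12 (0.08 to 0.16), while on probe 1 the EE-DE and EE-C arrays overlapped, at 0.03 (−0.03 to 0.08). In standard cages the arrays overlapped, with a difference of 0.04 (−0.02 to 0.09).

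Dnajb1, the inducible Hsp40 that delivers clients to Hsp70, read 4.12 and 4.15 in C-C, 4.14 and 4.11 in C-DE, 4.35 and 4.22 in EE-C, and 4.17 and 4.17 in EE-DE. All 4 enriched arrays lay above all 4 standard-cage arrays. The EE-C/C-C difference was 0.16 (0.07 to 0.24), the EE-DE/C-DE difference was 0.05 (0.02 to 0.07), and the EE-DE/EE-C difference was −0.12 (−0.19 to −0.05). The first EE-C array, the highest of the 8, was brighter around this spot: its 200 nearest kept spots read 0.12 above their mean over the arrays. With that local signal subtracted, a correction chosen after seeing the data, EE-C/C-C was 0.10, EE-DE/C-DE 0.04 and EE-DE/EE-C −0.04.

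Hsp90aa1, the inducible cytosolic Hsp90, read 5.96 and 6.05 in C-C, 6.10 and 6.06 in C-DE, 6.04 and 6.10 in EE-C, and 6.06 and 6.07 in EE-DE. The first C-C array was the lowest of the 8, and the other 7 lay between 6.04 and 6.10. The C-DE/C-C difference was 0.08 (0.01 to 0.15), the joint largest of any member gene for DE in standard cages, and the EE-DE/EE-C difference was −0.00 (−0.04 to 0.03).

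Hspb1, a small heat shock protein that holds unfolded proteins without ATP, read 2.51 and 2.32 in C-C, 2.45 and 2.42 in C-DE, 2.36 and 2.55 in EE-C, and 2.58 and 2.39 in EE-DE. Duplicates lay up to 0.19 apart, and all pools overlapped. Its pool means differed by at most 0.07, less than the distance between the 2 arrays in 3 of the 4 pools.

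Hspa8, the constitutive Hsp70 of the cytosol, was read by 3 probes that disagreed on DE. Probe 1 lies nearest the 5′ end of the transcript, and probe 2 lies further along and covers 296 bases of the genome with 60 bases of sequence, so it crosses an intron. Both are shown because they differ from probe 3, which is nearest the 3′ end and holds the polyadenylation signal AATAAA. Probe 1 is at chr9:40611142-40611201 and probe 2 at chr9:40612755-40613050 of mm9, plus strand.
Hspa8 probe 1: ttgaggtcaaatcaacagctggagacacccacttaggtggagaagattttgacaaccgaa
Hspa8 probe 2: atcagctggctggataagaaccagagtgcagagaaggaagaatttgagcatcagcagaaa
Probe 2 read 6.21 and 6.18 in C-C, 6.37 and 6.36 in C-DE, 6.14 and 6.15 in EE-C, and 6.27 and 6.25 in EE-DE. Both DE pools lay above both clean-air pools on this probe. The difference was 0.17 (0.15 to 0.20) in standard cages and 0.11 (0.10 to 0.13) in the enriched environment.

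Hspa8 probe 3 read 7.88 and 7.71 in C-C, 7.68 and 7.67 in C-DE, 7.84 and 7.67 in EE-C, and 7.60 and 7.55 in EE-DE. It ran the other way, with DE differences of −0.12 (−0.21 to −0.03) and −0.18 (−0.28 to −0.07). The first arrays of both clean-air pools stood above the rest. Probe 1 was between them, at 0.06 (−0.00 to 0.12) and −0.04 (−0.09 to 0.01). For EE-DE/C-DE the 3 probes pointed the same way, at −0.13 (−0.20 to −0.07), −0.11 (−0.12 to −0.10) and −0.10 (−0.13 to −0.07), and no arrays overlapped. The mean over the probes, which stands for the gene elsewhere, gave DE differences of 0.04 (−0.00 to 0.08) and −0.04 (−0.09 to 0.02) with signs that matched those of probe 1 and of neither other probe in both environments.

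**Figure D2:**
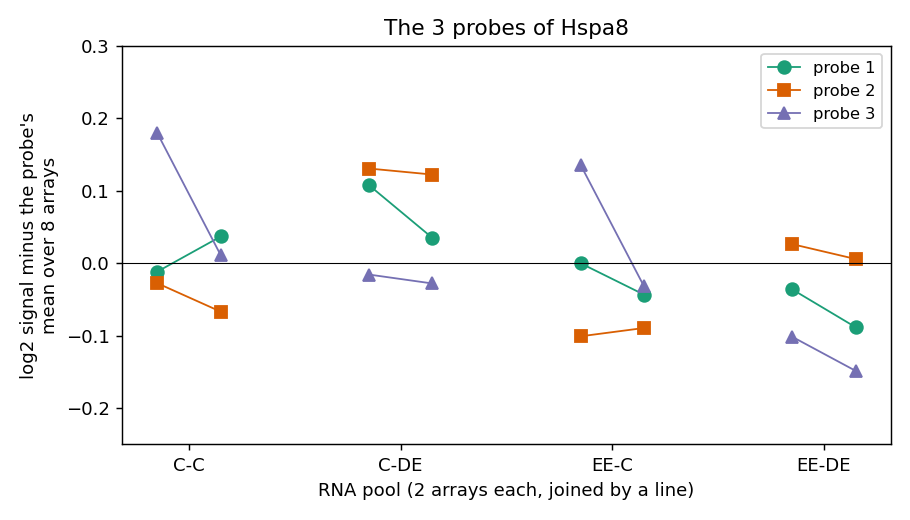
The 3 Hspa8 probes on the 8 arrays, as log2 signal minus the mean of the same probe over all arrays, with the 2 arrays of a pool joined by a line. Probe 2 is higher in both DE pools than in both clean-air pools, and probe 3 is lower in each DE pool than in its own clean-air pool.

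Hspa5, or BiP, the Hsp70 of the endoplasmic reticulum lumen, showed the widest member gene difference. It read 4.71 and 4.65 in C-C, 4.82 and 4.69 in C-DE, 4.62 and 4.57 in EE-C, and 4.58 and 4.52 in EE-DE. All 4 enriched arrays, 4.52 to 4.62, lay below all 4 standard-cage arrays, 4.65 to 4.82. The differences were −0.08 (−0.14 to −0.03) for EE-C/C-C, −0.21 (−0.31 to −0.11) for EE-DE/C-DE and −0.13 (−0.19 to −0.06) for EE-DE/C-C. For DE the pools overlapped in both environments, with 0.08 (−0.02 to 0.18) in standard cages and −0.04 (−0.10 to 0.01) in enriched cages. With the local signal around the spot subtracted, EE-DE/C-DE remained −0.21 and EE-C/C-C −0.08.

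Separation of all 4 arrays of one rearing from all 4 of the other was counted over the 14 probes after the Hspa5 values had been seen, so Hspa5 itself is a description. With enrichment lower it occurred for Hspa5 and for no other member probe, where 3.4% of all probes did so. With enrichment higher it occurred for 1 of 14 (Dnajb1), where 4.04% of all probes did. For DE against clean air, 1 of 14 probes was higher on all 4 DE arrays (Hspa8 probe 2), where 1.76% of all probes were. No member probe was lower on all 4 DE arrays, where 3.08% of all probes were. With 14 probes, 1 probe is the smallest count above 0 that could be found.

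Hspd1, the mitochondrial Hsp60, read 4.34 and 4.39 in C-C, 4.38 and 4.34 in C-DE, 4.39 and 4.37 in EE-C, and 4.36 and 4.39 in EE-DE. Its 4 pool means spanned 0.015, and 0.203% of all probes had a smaller span. That narrow span depended on the processing: with the local signal subtracted the means spanned 0.064, and EE-DE/C-DE went from 0.01 to −0.06, while normexp background correction gave 0.08 for EE-DE/C-C. Hspe1, its lid Hsp10, was read by 3 probes, of which probes 2 and 3 cover nearly the same bases. The mean levels were 2.91 and 2.91 in C-C, 2.95 and 2.92 in C-DE, 3.09 and 2.91 in EE-C, and 2.89 and 2.93 in EE-DE.

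One array, the first of EE-C, stood above the others for Hspe1. Around the 3 spots that array read 0.11 to 0.15 above its neighbors' mean over the arrays. The EE-DE/EE-C difference of Hspe1 was −0.09 (−0.20 to 0.02), and with the local signal subtracted it was −0.01. For C-DE/C-C the mean of the probes was 0.03 (0.01 to 0.04), but the 3 probes disagreed in sign, at −0.04 (−0.11 to 0.04), 0.10 (0.01 to 0.18) and 0.02 (−0.02 to 0.06). They disagreed in EE-DE/C-C too, at −0.11, 0.08 and 0.03, with no overlap of arrays on any of the 3.

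**Figure D3:**
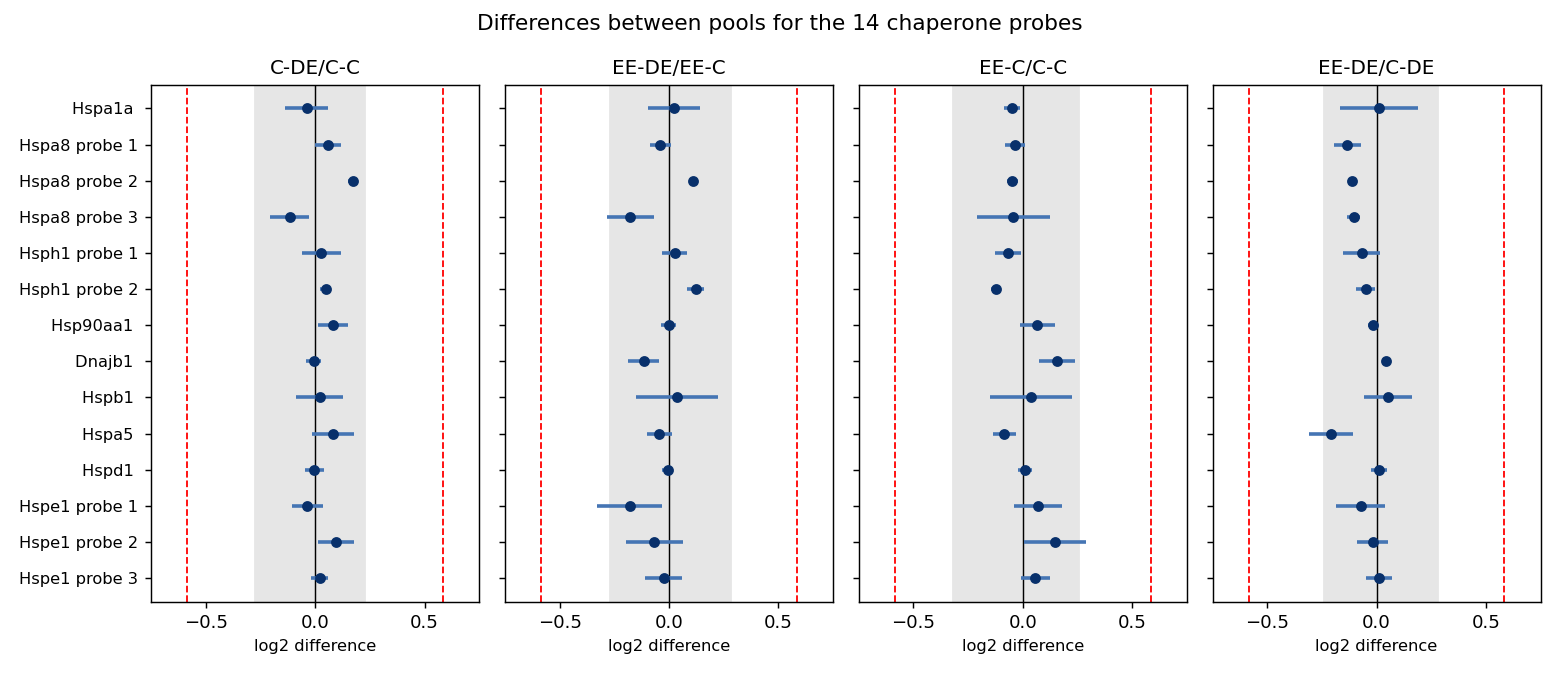
Log2 differences of the 14 probes in 4 comparisons: points are differences of pool means, bars the lowest to highest of the 4 array pairings, the gray band the central 95% of all 21709 probes, and dashed lines 1.5-fold. Every point lies inside the band, which runs from −0.28 to 0.23 in C-DE/C-C.

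The DE difference in the enriched environment minus that in standard cages was below 0 for 6 of the 9 genes and for 52.0% of all probes. It was −0.12 for Hspa5, −0.12 for Hspe1, −0.11 for Dnajb1, −0.08 for Hsp90aa1 and −0.07 for Hspa8. Hsph1 and Hspa1a gave 0.04 and 0.06, and Hspd1 and Hspb1 gave −0.00 and 0.01. With the local signal subtracted, Hspe1 was −0.04 and Dnajb1 −0.05, Hspa5 was −0.13, Hspa1a and Hspb1 changed sign, and 8 of the 9 genes were below 0, against 50.5% of all probes. The median over the 9 genes was −0.07 before and −0.05 after that subtraction, against −0.01 and −0.00 over all probes, and none of these values has replication between pools. Across the 4 pools the means of a member probe spanned 0.14 at the median, against 0.13 over all probes, and 0.22 at most.

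Other chaperone genes were taken from 8 lists, of which 1 was a pair of cold-inducible RNA-binding proteins. The rest held heat shock factors, co-chaperones and organelle chaperones. All were chosen with earlier results of these data known. Of 92 genes, 90 were kept. For DE, 1 gene was past 1.5-fold in standard cages and 1 in enriched cages, both higher, where 0.576% and 0.944% of all probes passed, and the medians were 0.02 and 0.00. No gene was past it in EE-C/C-C, and 1 was past it in each remaining comparison.

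The gene past 1.5-fold in C-DE/C-C was Hspb9, a small heat shock protein known from testis. It read −3.57 and −3.17 in C-C and −2.90 and −2.57 in C-DE, a difference of 0.64 (0.27 to 1.01). In the enriched pools it read −3.48 and −3.35 without DE and −3.29 and −2.60 with DE. This is a dim probe whose duplicates lay up to 0.69 apart.

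The gene past the threshold in the other 3 comparisons was Bag4, a nucleotide exchange partner of Hsp70 that the study itself had listed from these samples. It read 0.26 and −1.19 on the EE-DE arrays, while the other 6 arrays lay between −1.22 and −0.99. The difference of 0.60 in EE-DE/EE-C (−0.21 to 1.41) came from 1 array.

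Among the 5 heat shock factors and their regulators, the median DE difference was 0.06 in standard and 0.03 in enriched cages. Hsf1, the main stress-responsive factor, read 1.03 and 0.96 in C-C, 1.04 and 1.05 in C-DE, 0.93 and 0.98 in EE-C, and 1.00 and 0.97 in EE-DE. Hsf4, a factor best known from the lens, was higher on all 4 DE arrays, from −2.38 to −2.26, than on the clean-air arrays, from −2.80 to −2.51, as were 1.76% of all probes. Its differences were 0.31 and 0.34, short of 1.5-fold. Of 15 further cytosolic chaperone and co-chaperone genes, whose promoters were not searched here, 7 were above 0 and 8 below it in C-DE/C-C, with a median of −0.00. In EE-DE/EE-C 4 were above and 11 below, with a median of −0.01, and in EE-DE/C-DE the counts were again 4 and 11. In C-DE/C-C the lowest was Bag3, an Hsp70 co-chaperone of selective autophagy, which read 1.32 and 1.30 in C-C, 1.17 and 1.10 in C-DE, 1.12 and 1.16 in EE-C, and 1.12 and 1.08 in EE-DE. C-C stood above the 3 other pools, and EE-DE/EE-C was −0.04 (−0.08 to 0.00).

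The endoplasmic reticulum list was set beside Hspa5. Its 19 genes had a median of −0.02 in EE-C/C-C and −0.01 in EE-DE/C-DE. In EE-C/C-C 7 were above 0 and 12 below, from −0.25 (Hyou1) to 0.23 (Herpud1). In EE-DE/C-DE 9 were above and 10 below, from −0.16 (Calr) to 0.16 (Dnajb9). On 3 of the 19, namely Hsp90b1, Pdia6 and Xbp1, all 4 enriched arrays lay below all 4 standard-cage arrays, where 3.4% of all probes did so, and on none did they lie above. In the list of other Hsp70 and Hsp40 genes and partners the count was 3 of 26. Hsp90b1, the Hsp90 of the same compartment, read 4.89 to 4.96 in standard cages and 4.79 to 4.81 in enriched cages. Xbp1, a transcription factor of the unfolded protein response, read 4.34 to 4.41 and 4.26 to 4.29. Ddit3, a death-linked factor of that response, read 0.63 to 0.73 and 0.71 to 0.80.

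**Figure D4:**
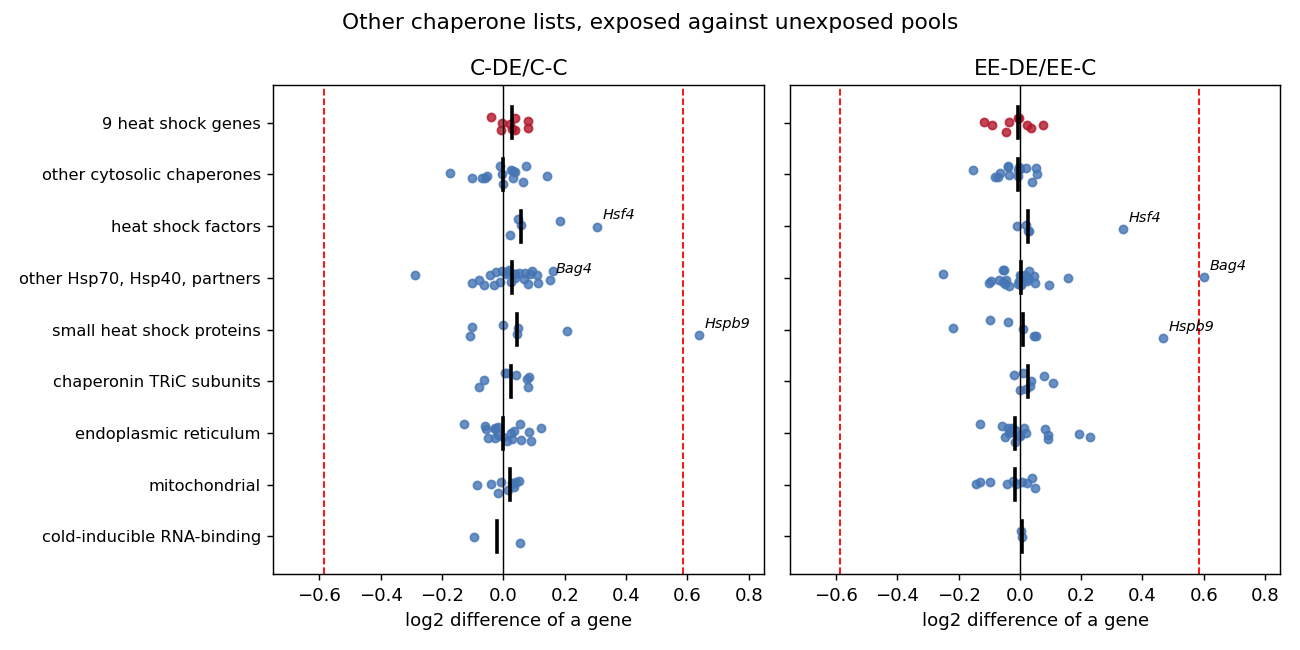
Log2 differences for DE in standard cages (left) and enriched cages (right), with 1 point per gene, grouped by list, a black bar at the list median and dashed lines at 1.5-fold; 2 genes stand in both the cytosolic and the small heat shock protein rows. The 9 heat shock genes and most list genes lie near 0, with Hspb9, Hsf4 and Bag4 named.

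Markers of olfactory mucosa and of neutrophils differed between some pools by more than the members did. In C-DE/C-C, 9 of 12 kept olfactory mucosa genes were past 1.5-fold and lower, where 0.576% of all probes passed either way. The median over the 12 was −1.14. For DE in enriched cages they ran the other way, with 7 of 12 past 1.5-fold and higher, against 0.944% of all probes. Their median was 0.67. The arrays of 1 of the 12 did not overlap there, against 34.2% of all probes, where 11 of 12 did not overlap in standard cages, against 40.9%. In EE-DE/C-DE 9 of 12 were past 1.5-fold and higher, against 0.636% of all probes, with a median of 1.56. The summed level of the 12 was 68.8 to 83.7 in C-C, 61.3 to 70.6 in C-DE, 71.0 to 81.5 in EE-C and 78.2 to 86.4 in EE-DE. Omp, the marker of mature olfactory sensory neurons, made up 81.5% to 91.5% of that sum, and without it the other 11 summed to 8.30 to 12.8, 5.33 to 6.17, 6.02 to 11.9 and 10.6 to 16.0. The 6 neutrophil genes summed to 3.78 to 4.61, 2.21 to 2.55, 2.95 to 8.56 and 3.14 to 5.23 in the same order. The 5 red blood cell genes had a median of −0.21 for DE in standard cages, 0.21 for EE-DE/C-DE, and −0.04 to 0.05 elsewhere. No gene of these lists had a signal of 0. Their part in the members' values was not tested, and in bulk tissue fewer cells of a type and less RNA per cell cannot be told apart. Immediate early genes, which respond to activity and handling, had a median of 0.33 in EE-DE/C-C, where the 9 heat shock genes had a median of 0.00. Of the 12, 2 passed 1.5-fold there (Atf3 and Btg2), against 0.815% of all probes. The arrays of 5 did not overlap, against 47.1% of all probes, and the medians in the other comparisons were 0.12 to 0.22.

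Likeness of pattern was measured by Pearson's r over the 8 arrays, among 2559 probes whose pool means spanned at least 0.3. Closest to Hspa5 were Gbp11 (r = 0.939), Amt (r = 0.930), Maml3 (r = 0.925), Txn2 (r = 0.921) and Mall (r = 0.918). Closest to the mean of Hspa1a, Hspa8, Hsph1, Hsp90aa1 and Dnajb1 were Nhlrc3 (r = 0.948), Ikzf5 (r = 0.824), Dab2ip (r = 0.809), Npffr1 (r = 0.777) and Twist2 (r = 0.761). That mean spanned only 0.09 on the 8 arrays, and the arrays share pools, the slide and its positions, so these values describe the arrays alone.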

How the data were processed

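Total RNA from olfactory bulbs was pooled by group, and each of 4 pools was hybridized to 2 arrays. The deposited scanner tables hold spot intensities that the authors extracted with Agilent Feature Extraction 10.7.3.1, background-subtracted by that software, with flags for each spot. The authors also deposited a table of log2 values scaled to the 75th percentile, used here only as an alternative. From the intensities, log2 signals minus the 75th percentile over noncontrol spots of each array were computed. Spots were kept when they had a GenBank or RefSeq accession, no outlier flag and, on each of the 8 arrays, a signal well above background. Spots of a probe, then probes of a gene, were averaged. The call rule was 1.5-fold between pool means, with no test because each group was 1 pool. Python 3.11.15 and limma 3.58.1 were used, and the call script was tested on simulated data. Named genes were all members, list genes past 1.5-fold, and the 5 most alike in pattern; others were named after their values were seen. The members and lists were chosen with earlier results of these data known. The design of 1 RNA pool per group limits the comparison of groups, and the 2 arrays per pool limit the technical precision. Alternatives were background correction, scaling, filters, thresholds, averaging and leaving out each array. Annotation was mm9 from the array files; exon and UTR annotation was not used here.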

Additional observations from a re-analysis of the deposited data

How the results depend on the processing

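No member gene passed 1.5-fold under any of the alternatives, where the 855 gene differences reached 0.27 in size at most. No paired analysis was possible because each group was 1 RNA pool and its array numbers name technical duplicates. The probes of Hspa1a, Hspb9 and Hsf4 were dim, which limits their precision. In the order DE in standard cages, DE in enriched cages, EE-C/C-C, EE-DE/C-DE and EE-DE/C-C, leaving out 1 array at a time gave 112 to 218, 205 to 396, 179 to 398, 138 to 262 and 177 to 296 probes past 1.5-fold, and member medians of 0.011 to 0.054, −0.058 to −0.0031, −0.047 to 0.011, −0.041 to 0.0033 and −0.020 to 0.017; the EE-C/C-C median was below 0 without either C-C array or without the second EE-C array, and the highest counts came without the second C-C, EE-C, EE-C, EE-DE and EE-DE array. Probes past the threshold were 572, 827, 645, 674 and 772 with the positive and significant flag, 561, 879, 590, 686 and 824 when well above background in at least 1 group, and 220, 378, 319, 250 and 397 over all noncontrol probes, since more probes then entered. They were 23, 17, 10, 38 and 24 when all 4 pairings had to pass and 27, 33, 24, 51 and 28 at 2-fold. With normexp background correction they were 38 for DE in standard cages, 136 for DE in enriched cages, 53 in EE-DE/C-DE and 51 in EE-DE/C-C. The EE-C/C-C member median of 0.01 became 0.029 with normexp, −0.016 with quantile normalization and 0.022 with the median of the kept spots as scale, and the cause was not tested. The median difference between the DE effects of the 2 environments stayed between −0.09 and −0.03. Of the member gene differences, 28 of 855 moved by more than the spread of the pairings.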
